A study of Rattus norvegicus with 6 samples.

Results

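Expression of 10 genes of gp130 cytokine signaling, out of 43350 gene rows in the deposited table, was examined in rat dorsal root ganglia (DRG) after nerve injury. The genes were the cytokines Il6, Lif and Cntf, the ligand-binding receptors Il6r and Cntfr, the signaling receptors Il6st (gp130), Lifr and Osmr, the transcription factor Stat3 and its feedback inhibitor Socs3. They were chosen by name, and each was found in the table by its symbol. For a symbol on more than 1 row, protein-coding rows took precedence, and among these the row with most counts.

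Young male Sprague-Dawley rats had either a chronic constriction injury (CCI) of the left sciatic nerve, in which the nerve was tied loosely with absorbable suture, or sham surgery with exposure of the nerve and no ligature. RNA of the ipsilateral L4-6 DRG was taken 11 days after surgery and sequenced in 6 libraries, 3 of CCI rats and 3 of sham rats, after depletion of ribosomal RNA. In the labels the sham group carries no treatment and the sample is described as pooled. By the paper, each sample was 1 rat and the sham group had surgery. Rats were allotted to CCI or sham surgery at random, and those that behaved as intended in testing were kept. Of these, 3 in each group were picked at random for sequencing. All 6 libraries are bulk tissue, so that fewer cells of a type and less RNA per cell cannot be told apart.

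Gp130 is the signal-transducing receptor chain that the interleukin-6 family of cytokines share. Interleukin-6 binds Il6r and then gp130, leukemia inhibitory factor (Lif) pairs Lifr with gp130, ciliary neurotrophic factor (Cntf) needs Cntfr beside Lifr and gp130, and oncostatin M pairs Osmr with gp130. The bound receptors activate Janus kinases, Stat3 is phosphorylated and enters the nucleus, and among the genes it switches on is Socs3, whose protein binds gp130 and the kinases and ends the signal. In peripheral nerve and DRG this pathway is known for its part in the response of neurons and glia to axon injury.

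Total counts were 75423546 to 87615743 per library, and the detection limit was set at 3 counts, or 0.0341 to 0.0394 CPM (counts scaled to library size, adjusted by edgeR's TMM factors). This limit covers counting error only. Values by library are given below in the order 1, 2 and 3. To be called, a gene needed an unadjusted p under 0.05 in edgeR together with a difference of 0.58 or more on the log2 scale. The 10 sensory neuron markers examined were all measured, among them Tubb3 and Uchl1, and their summed FPKM (counts scaled to row length and library total) was 4074 to 4175 in CCI and 3670 to 4185 in sham libraries. None of the 10 was called, their median log2 fold change was -0.13, and at an unadjusted p under 0.05 in edgeR 2 were higher (Tubb3 at 0.31 and Prph at 0.25) and 2 lower (Nefh at -0.54 and Calca at -0.15). Of the 4 injury markers Atf3, Sprr1a, Gal and Jun, all were called higher in the CCI group, with a summed FPKM of 95.5 to 180 against 23.5 to 25. Of 8 macrophage markers, 4 were called higher and none was at 0, and their summed FPKM was 196 to 279 in CCI and 110 to 127 in sham libraries, most of it from Lyz2, at 164 to 243 and 90.5 to 108. Skeletal muscle markers summed to 124 FPKM in sham 1 and to 3.82 to 17.7 in the other libraries, and 5 of 6 were called lower in the CCI group. The 6 T cell markers summed to 0.506 to 1.02 FPKM, and the 5 neutrophil markers to 8.46 to 30.0 FPKM with the highest value in sham 1. Of the 5 endothelial markers, Cdh5, Flt1 and Kdr had means of 5.68, 3.47 and 3.31 FPKM over all libraries, and none of these was called. Cldn5 was listed at 0 in all libraries, and Pecam1 was not found by symbol.

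The clearest difference among the 3 cytokines was that of Il6, the inflammatory cytokine of the family, which had counts in every CCI library and in no sham library. Since Il6 was the one gene of the 10 with no read in a whole group, the bases before its start site are shown, as RefSeq gives them for assembly GRCr8 (chr4:5894576-5894825, minus strand, 5′ to 3′), a different assembly from that of the deposited table. Capitals mark matches to 3 of the 4 motifs searched.

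Il6: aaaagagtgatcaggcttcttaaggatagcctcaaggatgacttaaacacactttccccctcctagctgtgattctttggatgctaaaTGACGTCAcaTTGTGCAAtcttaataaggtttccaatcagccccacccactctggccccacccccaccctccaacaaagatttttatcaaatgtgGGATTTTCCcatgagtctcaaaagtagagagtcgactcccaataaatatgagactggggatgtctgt

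Both strands were searched for the cyclic AMP response element TGACGTCA, a C/EBP motif TTGNGCAA, an NF-kB motif GGNNTTTCC and a STAT motif TTCNNNGAA. Il6 held the first at 162 to 155 bases before the start site, the second at 152 to 145 and the third at 67 to 59, and the 3 matches did not overlap. Of 33469 windows of 250 bases before a start site, 1.59% held the first motif, 2.29% the second, 5.19% the third and 7.67% the STAT motif. A window was given for 8 of the 10 genes, and the other 7 windows held none of these letters. The start sites behind the windows of Il6st, Lifr, Il6r and Socs3 lay 11360, 11602, 1496 and 1207 bases inside the genes as listed. The bases before the listed starts of these genes were therefore not searched. The start sites of Osmr and Stat3 lay 241 and 154 bases inside, so only the part of the window that reached past the listed start was searched there. A match of letters is a description and shows no binding.

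Il6 (chromosome 4, 3043231 to 3047807, plus strand, in the coordinates of the deposited table) had 164, 44 and 24 counts in the CCI libraries and 0 counts in each sham library. In CPM these were 2.02, 0.545 and 0.315 against 0, so that the groups did not overlap and CCI 1 alone held 70.7% of the gene's counts. Set against 3 counts per sham library (0.0361 CPM on average), Il6 in CCI rats was at least 26.6-fold higher. Without CCI 1 it was at least 11.9-fold higher, and CCI 3, the library with the fewest Il6 counts, lay at least 8.73-fold above that limit. With a mean of 0.417 FPKM over the 6 libraries, Il6 was under the minimum of 0.5 FPKM set for the main test. In the edgeR quasi-likelihood test without that filter it was called higher (unadjusted p = 0.00167, adjusted p = 0.191 by Benjamini-Hochberg over 35757 rows). In that fit 2.54% of the rows were called higher and 1.30% lower. Sham 1, which had the highest sum of muscle markers, had 0 counts of Il6.

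Lif, a cytokine made by glia and other cells around injured axons, was at the edge of detection and lower in the CCI libraries. Its row (chromosome 14, 84482674 to 84500642, plus strand) had 11, 4 and 27 counts in the CCI libraries and 36, 50 and 37 counts in the sham libraries. All 3 CCI libraries, at 0.0495 to 0.354 CPM, lay under all 3 sham libraries, at 0.409 to 0.630 CPM. The gene was also under the filter, and without the filter its log2 fold change was -1.46 (standard error 0.71, 95% interval -3.15 to 0.23), which was not called (unadjusted p = 0.0809, adjusted p = 0.628 in the edgeR quasi-likelihood test, Benjamini-Hochberg adjusted). Leaving out CCI 3 gave -2.40 and a call (unadjusted p = 0.0117 in the same edgeR test), whereas without CCI 2 the value was -1.01.

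Cntf, a neurotrophic cytokine of Schwann cells, could not be measured on its own. The assembled row that carries it (chromosome 1, 229599009 to 229640209, minus strand) joins Cntf and the neighboring gene Zfp91, an E3 ubiquitin ligase gene, and the table does not divide the counts between them. The joined row measured 112, 120 and 138 CPM in the CCI libraries and 142, 149 and 107 CPM in the sham libraries. Values of the groups overlapped, with a log2 fold change of -0.10 (95% interval -0.44 to 0.24, edgeR quasi-likelihood test, unadjusted p = 0.493).

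**Figure D1:**
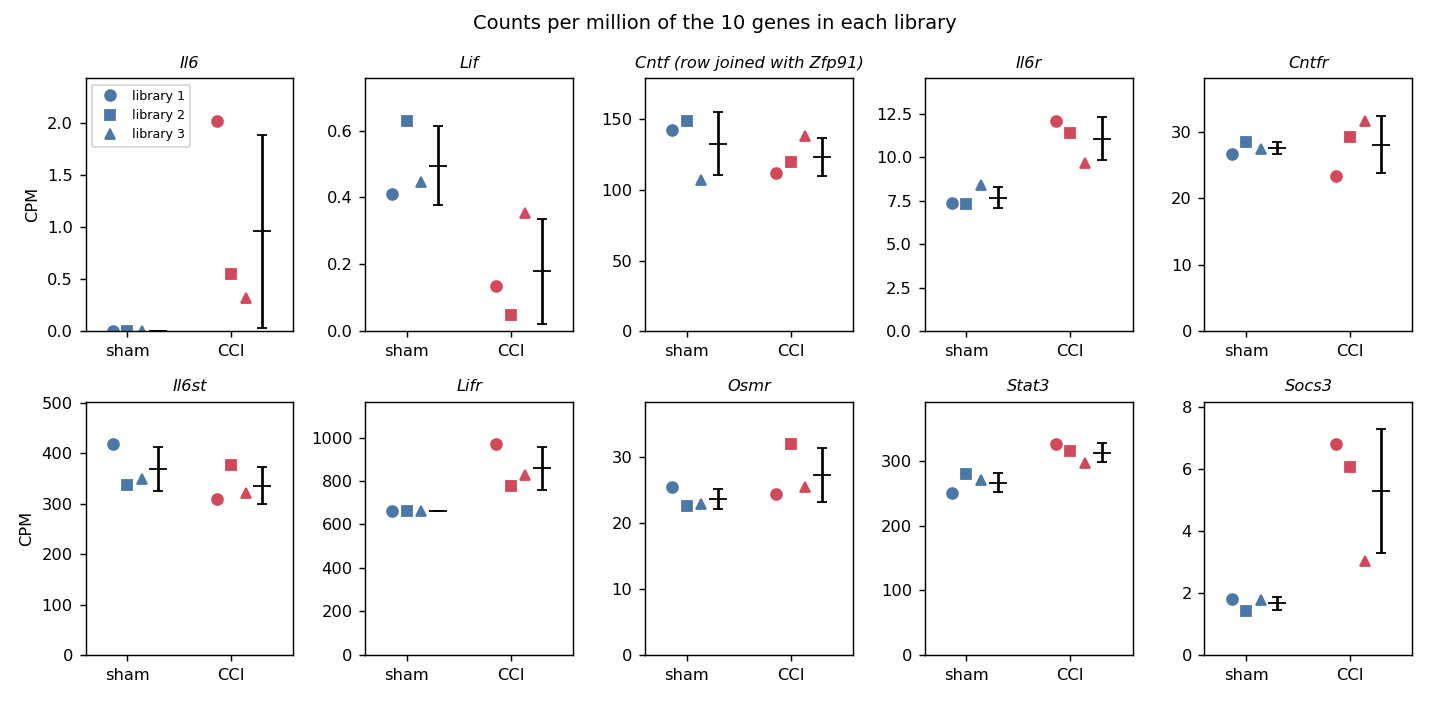
CPM of each of the 10 genes, with 1 panel per gene, each with its own axis from 0. Blue points are sham and red points CCI libraries (circle, square and triangle for libraries 1, 2 and 3), and the black mark gives the mean and SD of 3 libraries. Il6 lies at 0 in the sham libraries and between 0.315 and 2.02 in the CCI libraries, and Il6r, Lifr, Stat3 and Socs3 also lie higher in all CCI libraries, whereas Lif lies lower in all of them.

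Of the 10 genes, 8 passed the filter and were tested among 26663 rows, with Cntf counted by its row joined with Zfp91. Of the 8, 1 gene, Socs3, was called higher and 0 lower, where the same limits called 2.57% of all rows higher and 1.26% lower. Il6r, Lifr, Stat3 and Socs3 had an unadjusted p under 0.05 with a higher mean in the CCI group, 4 of the 8 against 5.57% of all rows. In the same 4 genes all CCI libraries lay above all sham libraries, which held for 8.62% of the rows tested, while the opposite arrangement held for 8.70% of rows and for 0 of the 8 genes. At an adjusted p under 0.05, the edgeR quasi-likelihood test (Benjamini-Hochberg) called 0 of the 8 genes, limma on log2(FPKM + 0.1) also 0, and DESeq2 called 3, namely Il6r, Lifr and Socs3. Of all rows, 0.0938% passed that limit in edgeR. The share of all rows that passed it in DESeq2 is not given here, so the 3 genes of DESeq2 cannot be set against a background. The median log2 fold change of the 8 genes was 0.22, and that of all rows tested was 0.01.

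Il6r encodes the receptor chain that binds interleukin-6 before gp130 is engaged. Its gene row (chromosome 2, 189205701 to 189254628, minus strand) measured 12.1, 11.4 and 9.68 CPM in the CCI libraries and 7.36, 7.28 and 8.37 CPM in the sham libraries. Every CCI library was above every sham library, with a difference of 0.53 on the log2 scale (standard error 0.13, 95% interval 0.23 to 0.84). The size was just under the limit of 0.58, so the gene was not called, at an unadjusted p of 0.00485 and an adjusted p of 0.229 in the edgeR quasi-likelihood test, Benjamini-Hochberg adjusted. It was called without CCI 3, at 0.62, and without sham 3, at 0.60. DESeq2 gave a Benjamini-Hochberg adjusted p of 0.0221, in a range of 0.0221 to 0.489 over the settings that kept all libraries.

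Inside the Il6r gene the authors' assembly placed 4 further short rows without strand. Each had 23 to 380 counts in a library. At 189244546 to 189247129 the counts were 380, 314 and 185 in the CCI libraries and 207, 166 and 187 in the sham libraries, and the row was called higher with a log2 fold change of 0.71 (edgeR quasi-likelihood test, unadjusted p = 0.0304). At 189250370 to 189251955 they were 239, 167 and 126 against 125, 93 and 109, again called higher, with 0.77 (unadjusted p = 0.0231 in the same edgeR test). The other 2 rows had overlapping groups and were not called, with log2 fold changes of 0.57 and 0.87. On the CPM scale, which takes library size into account, the groups of both called rows did not overlap.

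Cntfr, the receptor chain that binds Cntf and is anchored in the membrane of neurons, showed no difference beyond the spread between libraries. It (chromosome 5, 58041146 to 58078692, minus strand) measured 23.3, 29.2 and 31.7 CPM in the CCI libraries and 26.7, 28.5 and 27.4 CPM in the sham libraries. CCI 1 was the lowest and CCI 3 the highest of all 6 libraries. The log2 fold change was 0.03, with a 95% interval from -0.26 to 0.31 (edgeR quasi-likelihood test, unadjusted p = 0.827).

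Il6st, the gp130 gene itself (chromosome 2, 44279233 to 44319422, plus strand), measured 310, 377 and 321 CPM in the CCI libraries and 418, 338 and 349 CPM in the sham libraries. The groups overlapped, with a log2 fold change of -0.13 (95% interval -0.40 to 0.13, edgeR quasi-likelihood test, unadjusted p = 0.275). Sham 1 was the highest library, and without it the value was -0.03. A second row with the Il6st symbol lies on the opposite strand over the 3′ part of the gene (44313197 to 44319422). It held 7.22% of the counts of both rows in sham 1 and 14.8% to 22.0% in the other 5 libraries. With both rows added, Il6st measured 450, 429 and 435 CPM in the sham libraries and 397, 442 and 410 CPM in the CCI libraries, and the groups still overlapped (exact permutation test, two-sided p = 0.300, where 0.1 is the smallest that 3 against 3 allows). The library kit marked strand, and whether the counting used it was not stated. How reads were divided between the 2 rows was not tested.

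Lifr, the receptor shared by Lif and Cntf, was higher in every CCI than in every sham library, and varied little within the sham group. It (chromosome 2, 56409183 to 56489390, plus strand) measured 969, 776 and 829 CPM in the CCI libraries and 661, 664 and 663 CPM in the sham libraries. The CCI libraries all lay above the sham libraries, and CCI 1 was the highest. The log2 fold change was 0.37 (standard error 0.09, 95% interval 0.17 to 0.58), a 1.29-fold higher level that did not reach the fold limit (unadjusted p = 0.00412, adjusted p = 0.218 in the edgeR quasi-likelihood test, Benjamini-Hochberg adjusted). The DESeq2 value after Benjamini-Hochberg adjustment was 0.0166, in a range of 0.0166 to 0.401 over the settings that kept all libraries.

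A second row with the Lifr symbol begins 111 bases past the end of the first on the same strand (56489501 to 56493911). It measured 605, 505 and 540 CPM in the CCI libraries and 401, 406 and 434 CPM in the sham libraries, in the same order of groups as the first row. Its log2 fold change was 0.41 (95% interval 0.22 to 0.60, edgeR quasi-likelihood test, unadjusted p = 0.00150), and it was not called either. The second row held 37.8% to 39.6% of the counts of both rows in each library, a share that did not separate the groups (exact permutation test, two-sided p = 0.400). Added together, the rows gave 1408 ± 150 CPM for CCI and 1077 ± 18.0 CPM for sham (SD, n = 3, two-sided p = 0.1 in the exact permutation test, the smallest possible).

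Osmr, the oncostatin M receptor (chromosome 2, 56109088 to 56163009, minus strand), measured 24.3, 31.9 and 25.5 CPM in the CCI libraries and 25.4, 22.6 and 22.9 CPM in the sham libraries. The difference lay in CCI 2, since CCI 1 was below sham 1. The log2 fold change of 0.20 (95% interval -0.08 to 0.49, edgeR quasi-likelihood test, unadjusted p = 0.133) went to 0.08 without CCI 2. Lifr, Osmr, Il6st and Il6r all lie on chromosome 2 in the table, and Osmr and Lifr are neighbors there.

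Stat3, the transcription factor through which gp130 acts (chromosome 10, 88790408 to 88842233, minus strand), measured 326, 315 and 297 CPM in the CCI libraries and 250, 280 and 270 CPM in the sham libraries. Each CCI library was above each sham library, by a small margin between CCI 3 and sham 2. The level was 1.17-fold higher in the CCI group, a log2 fold change of 0.23 (standard error 0.06, 95% interval 0.08 to 0.38), under the fold limit (unadjusted p = 0.00952, adjusted p = 0.278 in the edgeR quasi-likelihood test, Benjamini-Hochberg adjusted). Leaving out single libraries gave values between 0.19 and 0.27.

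Socs3, the feedback inhibitor of gp130 signaling and a direct Stat3 target, rose in the CCI group. It (chromosome 10, 106975178 to 106976040, minus strand) had 554, 490 and 230 counts in the CCI libraries and 158, 113 and 148 counts in the sham libraries. In CPM these were 6.81, 6.07 and 3.02 against 1.80, 1.42 and 1.79, so CCI 3 lay between the other CCI libraries and the sham group. The group means were 5.30 ± 2.01 CPM and 1.67 ± 0.214 CPM (SD, n = 3), a 3.17-fold higher level and a log2 fold change of 1.67 (standard error 0.32, 95% interval 0.89 to 2.44). It was called at an unadjusted p of 0.00168, with an adjusted p of 0.157 in the edgeR quasi-likelihood test, Benjamini-Hochberg adjusted. The call was kept with each library left out, with log2 fold changes from 1.44 without CCI 1 to 1.95 without CCI 3. The adjusted p (Benjamini-Hochberg) was 7.48e-05 in DESeq2 and 0.380 with a block for the replicate number in edgeR, the ends of the range over the settings that kept all libraries. A row of Pgs1 on the other strand overlaps the Socs3 row and had 171 counts in all 6 libraries together.

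**Figure D2:**
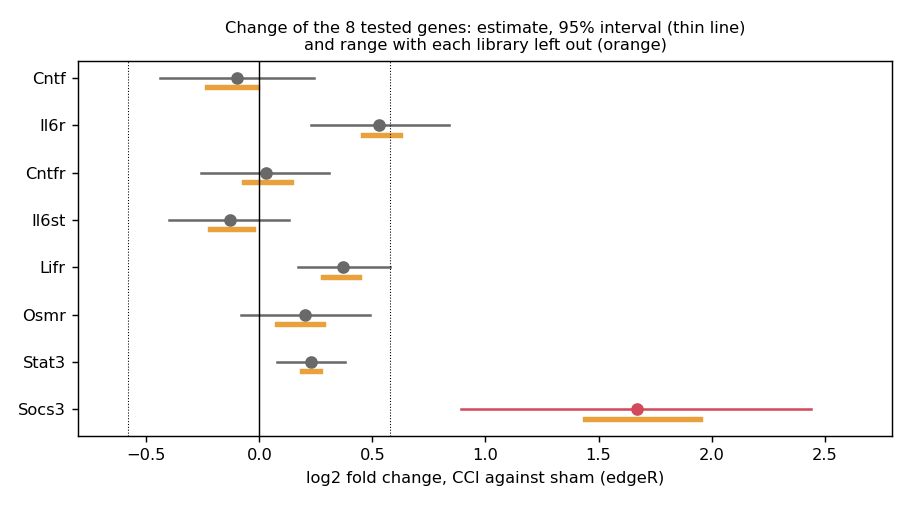
Log2 fold change of the 8 tested genes, CCI against sham, from edgeR's quasi-likelihood test. Points give the estimate, thin lines its 95% interval and orange bars the range with each of the 6 libraries left out in turn, and dotted lines mark the fold limit of 0.58. Socs3, in red, is the gene that was called, at 1.67 with an interval from 0.89 to 2.44. Cntf (its row joined with Zfp91), Cntfr, Il6st and Osmr have intervals that include 0.

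Levels can be compared between genes per length of row, in FPKM. By the row taken for each gene, Stat3 was the most abundant of the 10, at 64.8 ± 2.72 FPKM in the CCI group and 54.6 ± 2.70 FPKM in the sham group (SD, n = 3). Il6st followed, at 39.4 ± 4.23 and 42.7 ± 5.36 FPKM, and then Lifr, at 42.2 ± 4.76 and 32.2 ± 0.212 FPKM. Il6st and Lifr did not differ beyond their spread in the CCI group, while in all 3 sham libraries Il6st was above Lifr. The ratio of Lifr to Il6st FPKM was 1.31, 0.864 and 1.08 in the CCI libraries and 0.664, 0.825 and 0.796 in the sham libraries (exact permutation test, two-sided p = 0.1, the smallest possible). The Lifr row has a length of 20451 bases and that of Il6st 8577, as implied by counts and FPKM, and FPKM depends on the row length that the assembly gave. The second rows with these symbols were left out of this order. That of Lifr measured 114 ± 10.2 FPKM in the CCI and 85.0 ± 3.17 FPKM in the sham group, above the Stat3 row in both. That of Il6st measured 11.9 ± 1.91 and 10.2 ± 4.71 FPKM (SD, n = 3). The order of Stat3, Il6st and Lifr thus rests on the row taken.

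Below these came the joined row of Cntf and Zfp91, at 13.4 ± 1.48 FPKM in the CCI and 14.2 ± 2.46 in the sham group, and Cntfr, at 12.3 ± 1.94 and 11.9 ± 0.344 (SD, n = 3), which did not differ from each other beyond their spread. Osmr measured 5.23 ± 0.786 FPKM in the CCI and 4.49 ± 0.327 FPKM in the sham group. Socs3 was at 5.62 ± 2.12 FPKM in the CCI group, with a spread that included Osmr, and at 1.75 ± 0.228 FPKM in the sham group, near Il6r at 1.51 ± 0.112 (SD, n = 3). Il6r in the CCI group was 2.21 ± 0.244 FPKM. Thus the Il6st row exceeded the Il6r row in FPKM in every library, by 15.0, 19.4 and 19.5 times in the CCI libraries and by 33.4, 27.3 and 24.6 times in the sham libraries. These are RNA values of a single row each, without the further rows of both genes, and protein was not measured. Il6, at 1.75, 0.475 and 0.277 FPKM in the CCI libraries, and Lif, at 0.0192 to 0.252 FPKM over all libraries, were the least abundant.

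Socs3 was also compared with Stat3 within each library. Socs3 FPKM amounted to 10.7%, 9.87% and 5.19% of Stat3 FPKM in the CCI libraries and to 3.67%, 2.6% and 3.39% in the sham libraries. The share was 8.59% ± 2.98 in the CCI group and 3.22% ± 0.554 in the sham group (SD, n = 3), without overlap (exact permutation test, two-sided p = 0.1, the smallest possible). The 3 tests of FPKM ratios and shares between genes, run over the same libraries, could not go below that value. The share of Socs3 rests on the Socs3 values given above, which already separated the groups, and is no separate result.

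**Figure D3:**
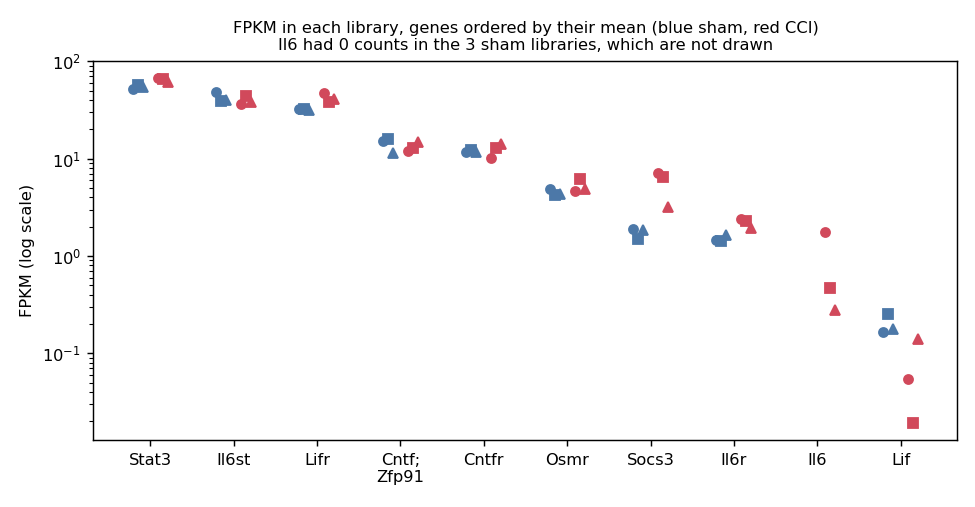
FPKM of the row taken for each of the 10 genes in each library on a log scale, ordered by the mean over the 6 libraries, with blue for sham and red for CCI. Stat3, Il6st and Lifr lie between 32 and 67.2 FPKM, and Il6 and Lif lie below 2, with Il6 not drawn for the sham libraries, where its count was 0.

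CCI 1 was the highest CCI library for 5 of the 10 genes, Il6, Il6r, Lifr, Stat3 and Socs3, which were also the 5 genes whose CCI libraries all lay above the sham libraries. CCI 3 was the lowest CCI library for 4 of them, with Lifr lowest in CCI 2. For the joined row of Cntf and Zfp91, Cntfr, Il6st and Osmr the order was different, with CCI 1 the lowest of the 3 CCI libraries in each. The summed FPKM of macrophage markers was 279 in CCI 1, 196 in CCI 2 and 206 in CCI 3, and that of the injury markers was 180, 95.5 and 96.2. Lyz2 made up most of the macrophage sum, at 243, 164 and 180 FPKM. In FPKM, the macrophage markers Cd68, Aif1, Csf1r, Cx3cr1, Cd163 and Mrc1 were lowest among CCI libraries in CCI 3, and Adgre1 in CCI 1. Of the injury markers, Atf3, Jun and Sprr1a were lowest in CCI 3, at 16.2, 35.4 and 1.70 FPKM, and Gal in CCI 2, at 34.0. The part of macrophages or of the degree of injury in the values of Il6, Il6r, Lifr, Stat3 and Socs3 was not tested.

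Other genes of the pathway were read from a list of 24, all found in the table, of which 19 were tested. None was called in either direction at the limits used, by edgeR's quasi-likelihood test, DESeq2 or limma, and 2 had an unadjusted p under 0.05 in the higher and 1 in the lower direction in edgeR. Their median log2 fold change was 0.11. Among the most abundant, the kinase gene Jak1 had a mean of 46.9 FPKM and a log2 fold change of -0.08, and the phosphatase gene Ptpn11 had 25.6 FPKM and 0.02. The adaptor gene Grb2 had 21.7 FPKM and -0.09, and the exchange factor gene Sos1 had 20.6 FPKM and -0.13 (edgeR quasi-likelihood test, unadjusted p = 0.0375).

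Jak2, a kinase bound to gp130 receptors, was named after its values were seen, as a gene with an unadjusted p under 0.05 and higher values. It had 6747, 5039 and 4595 counts in the CCI libraries and 4584, 4247 and 4190 counts in the sham libraries, a log2 fold change of 0.40 (unadjusted p = 0.0184 in the edgeR quasi-likelihood test). All CCI libraries lay above all sham libraries. The cytokine genes Il11, Osm, Ctf2 and Il27 and the inhibitor gene Socs1 were under the filter. Socs1 had 57, 31 and 33 counts in the CCI libraries and 27, 19 and 18 in the sham libraries. In CPM its groups did not overlap. Without the filter its log2 fold change was 0.99, which was not called (edgeR quasi-likelihood test, unadjusted p = 0.0586). The groups of Il11 and Ctf2 overlapped. Osm, the ligand of Osmr, had 15, 41 and 49 counts in the CCI libraries and 14, 32 and 40 in the sham libraries, with overlapping groups, and Il27 had no count in 4 of the 6 libraries.

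Textbook Stat3 target genes were taken from a list of 19, of which 17 were found by symbol and tested, and 2 of the 17 were called higher and 0 lower, against 2.57% and 1.26% of all rows. Mcl1 and Serpina3n were not found by symbol and so not tested, and the paper counts Serpina3n among its upregulated genes. No tested target gene had an unadjusted p under 0.05 in the lower direction in edgeR's quasi-likelihood test, and DESeq2 and limma also called 0 lower. The median log2 fold change was 0.26, against 0.01 for all rows, and values ranged from -0.42 (Lcn2) to 1.30 (Bcl3). Bcl3, a nuclear regulator of NF-kB, had 594, 426 and 412 counts in the CCI libraries and 250, 187 and 172 counts in the sham libraries. All CCI libraries were well above the sham libraries, with a log2 fold change of 1.30 (SE 0.20, unadjusted p = 0.000489, adjusted p = 0.109 in the edgeR quasi-likelihood test, Benjamini-Hochberg adjusted).

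Gfap, the intermediate filament gene of reactive glia, had 2853, 1681 and 1471 counts in the CCI libraries and 953, 1135 and 1012 counts in the sham libraries. The groups did not overlap and CCI 1 stood highest, with a log2 fold change of 1.01 (SE 0.25, edgeR quasi-likelihood test, unadjusted p = 0.00538). Both genes kept their call with each library left out. Timp1, an inhibitor of matrix proteases, and Hif1a, the oxygen-sensing factor, had unadjusted p-values of 0.00442 and 0.00860 in the edgeR test with log2 fold changes of 0.33 and 0.23, under the fold limit. The early genes Junb and Fos were highest in CCI 2, at 1319 and 1909 counts, and their groups overlapped. Of the 5 satellite glia markers and 6 Schwann cell markers examined, none was called, with median log2 fold changes of 0.03 and -0.14. All 4 injury markers and 4 of the 8 macrophage markers were also called higher in the CCI group. The macrophage markers Aif1 and Mrc1 had overlapping groups, and Cd163 and Adgre1 had log2 fold changes of -0.00 and 0.02. The part of macrophages or of the degree of injury in the values of Bcl3 and Gfap was not tested.

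**Figure D4:**
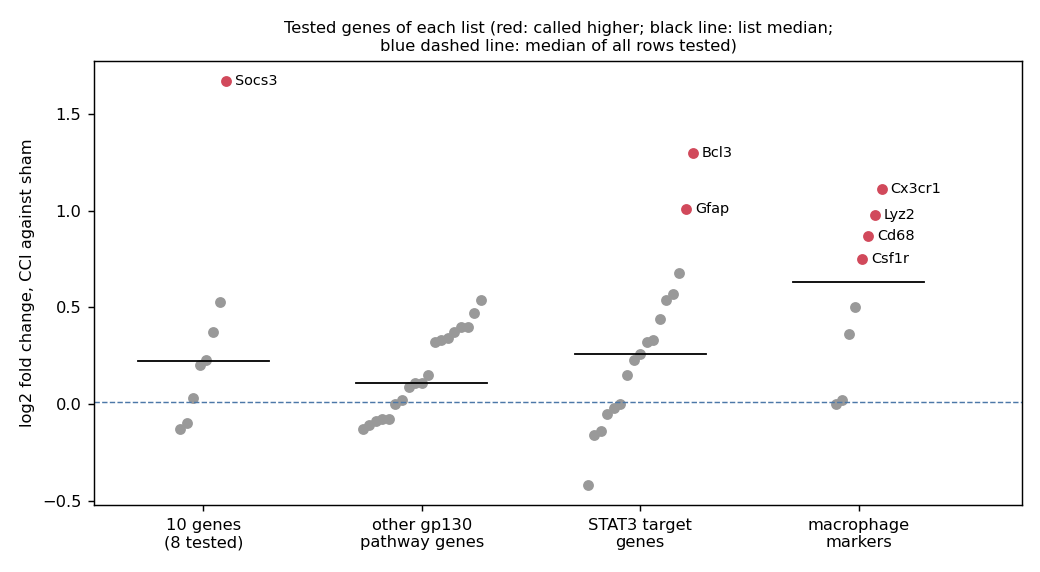
Log2 fold change of each tested gene of 4 lists, CCI against sham, from edgeR's quasi-likelihood test, with red points for genes called higher, a black line for the list's median and a blue dashed line for the median of all rows. Socs3 stands at 1.67, Bcl3 and Gfap are the called Stat3 targets at 1.30 and 1.01, no other pathway gene was called, and 4 of the 8 macrophage markers were called.

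The profile of a gene over the 6 libraries was compared with those of 12980 protein-coding genes by the Euclidean distance between log2 CPM values centered on each gene's mean. Nearest to Socs3 were Arg1 (distance 0.268), Reg3a (0.334), Il1r1 (0.35), C1qb (0.411) and Cd74 (0.424), an arginase of macrophages and other cells, a secreted lectin, an interleukin-1 receptor, a complement chain and the MHC class II invariant chain. Each of them, like Socs3, was called higher in the CCI group and was lowest, among CCI libraries, in CCI 3. The choice by distance favors such genes. Arg1, for example, measured 4.67, 3.36 and 2.06 CPM in the CCI libraries and 1.0, 0.592 and 1.10 CPM in the sham libraries. Nearest to Stat3 were Ppie (0.0615), Focad (0.0633), Pgk1 (0.0637), Dgat1 (0.0761) and Got2 (0.0762), which had log2 fold changes of 0.20 to 0.25 and were not called. The distances are descriptions over 6 libraries that share their depth and group structure. Since the genes were picked by distance, their likeness to Socs3 or Stat3 in direction, size and library order comes with the choice and is no separate result.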

How the data were processed

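The deposited table was used as the authors made it. Per the paper's methods, clean reads were mapped with HISAT to the rat genome called V101, transcripts were assembled and merged with StringTie, and expression was estimated with StringTie and edgeR (the submitters' processing notes give HISAT2 2.0 and StringTie 1.3.0). The authors deposited whole-number counts per row and library, without normalization, and FPKM values made from them by row length and library total, where a count of 0 is listed at 0.000100. Whether strand was used in counting was not stated.

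Groups follow the sample titles, 3 libraries each, and the 10 genes, gene lists and tests were chosen with earlier results of these data known. The 26663 rows that averaged 0.5 FPKM or more went into edgeR 4.0.16 (R 4.3.3), using TMM factors, a trended prior and the quasi-likelihood test, with the study's limits (0.05 for the unadjusted p, 0.58 for the log2 fold change) and, separately, a Benjamini-Hochberg adjusted p under 0.05. Named were all 10 genes, the called genes of the lists or their 4 most abundant, and the 5 nearest profiles. The list genes Jak2, Il11, Osm, Ctf2, Il27, Socs1, Lcn2, Timp1, Hif1a, Junb, Fos, Clcf1 and Il27ra, and single marker genes, were named outside this rule, after their values were seen. Mcl1, Serpina3n and Pecam1 were named as not found by symbol. Alternatives were DESeq2 1.42.0, limma 3.58.1 on log2(FPKM + 0.1), relative log expression factors, no filter, a mean FPKM of at least 1, a replicate block and leaving out each library. The tests were tried on simulated counts. Rows without a symbol held 5.37% to 5.72% of counts and were kept. Values of 1 gene of the pathway list are not reported here. Figures were drawn with matplotlib 3.10.9.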

Additional observations from a re-analysis of the deposited data

How the results depend on the processing

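Of the 8 genes tested with the filter, 1 was called higher, and of the 10 genes tested without it 2, where Il6 joined Socs3. Leaving out single libraries gave 1 to 2, with Il6r the second gene without CCI 3 or sham 3. At an adjusted p under 0.05, DESeq2 called 3 of the 8 genes and every other setting 0. The share of all rows at that limit is given for edgeR only. The pathway list had 0 genes called higher, and 0 to 1 with a library left out, among them Clcf1 without sham 1 and Il27ra without sham 2. The log2 fold change of Cntfr turned from 0.03 to -0.00 without CCI 2 and -0.07 without CCI 3, with no call, and its range with a library left out was -0.07 to 0.14. The cause of these shifts was not tested. Stat3 targets called higher numbered 2 in each setting with all libraries and 2 to 3 with a library left out, and 0 targets were called lower. With a replicate block in edgeR, 1 of the 8 genes was called, and 617 rows were higher and 318 lower against 686 and 336 without it. Deviations of same-numbered libraries from their group means had r of -0.0807 to -0.00959, and 0 of 6 libraries correlated best with their own number. This gave no sign that the numbers pair the rats, but with 3 libraries a group it cannot show that they do not. Il6 and Lif rest on 0 to 164 counts a library and were tested only without the filter. The smallest exact p for 3 rats against 3 is 0.1.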
